A study of Danio rerio with 6 samples.

Results

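The zebrafish mitochondrial genome was represented by 37 of the 32105 genes of the count table, taken as every gene placed on chromosome M. They are 13 protein genes, 2 rRNA genes and 22 tRNA genes. Of these 37 genes, 28 lie on the plus strand of GRCz10 and 9 on the minus strand, namely mt-nd6 and 8 tRNA genes. The libraries came from cd41-positive cells, labelled as blood stem and progenitor cells, of zebrafish embryos 40 hours after fertilization. There were 3 libraries of ddx41 mutants and 3 of wildtype controls, which the series design describes as sibs of the mutants. The sample titles carry cd41gfp, and the labels name no treatment or further allele in either group. The labels do not give the number of embryos behind a library, nor whether libraries of one genotype came from separate sorts, so the p-values measure the spread between these libraries, which may be in part technical.

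The mitochondrial genome is a small circle of DNA, present in many copies per cell, that is transcribed from both strands into long precursors. These precursors are cut at the tRNAs that lie between the other genes, and the messenger RNAs of most protein genes then receive short poly(A) tails. The proteins are core subunits of the respiratory chain and the ATP synthase, the rRNAs form the mitochondrial ribosome with proteins encoded in the nucleus, and the tRNAs serve translation inside the organelle. In mammals blood stem cells are known for a low reliance on respiration, while red cell precursors use mitochondria for haem synthesis and lose them as they mature.

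Library totals ran from 14577735 to 15912260 counts in the mutants and from 17001423 to 17639699 in the wildtypes, so the mutant libraries were shallower in every case. At these depths the counting error was small beside the spread between libraries, the widest 95% Wilson interval of a share being ±0.0237 percentage points. Intervals and floors given here cover counting error only. Mutant 1 and wildtype 1 stood apart within their genotypes. The chi-square per degree of freedom was 18.3 between mutants 2 and 3 and 40.2 between wildtypes 2 and 3, against 95.4 to 110.0 between either of the former and its own group. No pair of libraries agreed within sampling noise.

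Beside all of the following results, the RNA levels of markers of several cell types differed by genotype. The edgeR quasi-likelihood test called 3.34% of all tested genes higher and 1.99% lower at an adjusted p of 0.05, and the counts of markers that rose or fell are read against these shares. Erythroid markers rose in 11 of 12 tested genes, with summed levels of 10507 to 33271 CPM (counts per 1000000, on library sizes scaled by edgeR's TMM factors) in the mutants and 516 to 4133 CPM in the wildtypes. Of 8 tested myeloid markers 2 fell, and the list summed to 8008 to 11383 CPM against 14790 to 29215 CPM. All 8 had a log2 fold change below 0, where 51% of all tested genes were above 0. DESeq2 called 6 and limma voom 8 lower, beside 5.46% and 7.22% of the genes they tested. In 7 every mutant lay below every wildtype, a separation whose share over all genes is not given here. Lens markers rose in 6 of 8 tested genes (57.0 to 209.9 against 7.76 to 15.9 CPM), while 2 of 5 neuron and retina markers fell (30.2 to 40.0 against 69.4 to 365.0 CPM). Of the matched genes of these lists, 3 of 11 lens genes had 0 counts in all wildtypes and 1 of 8 neuron and retina genes had 0 counts in all libraries. Thrombocyte markers rose in 5 of 8 (231.8 to 665.2 against 221.7 to 397.2 CPM), while mpl and PLEK, named after their values were seen, lay lower in every mutant than in any wildtype and were called lower by DESeq2 and limma voom, but not by edgeR. Of 6 blood stem and progenitor markers 1 rose, TAL1, but 4 had a log2 fold change below 0 and the list's median was -0.56 (143.8 to 331.1 against 123.5 to 264.5 CPM). Among them gata2b lay at 0.238 to 1.53 CPM in the mutants and 2.01 to 4.71 CPM in the wildtypes, without overlap (edgeR adjusted p = 0.174). In this list of 6, DESeq2 and limma voom each called 2 genes higher and 0 lower. Over all genes tested, DESeq2 called 6.22% higher and 5.46% lower, and limma voom 7.8% and 7.22%. Hatching gland markers rose in 1 of 3 in edgeR, while limma voom called 1 higher and 1 lower, beside 7.8% and 7.22% of all tested genes. They summed to 1382, 177.4 and 192.1 CPM in mutants 1 to 3 and to 508.8, 226.6 and 303.2 CPM in wildtypes 1 to 3. Mutants 2 and 3 thus lay below every wildtype. Endothelial markers rose in 1 of 6 (30.6 to 91.0 against 13.5 to 53.9 CPM). None of 6 muscle markers passed in edgeR, at an unadjusted p of 0.05 or in DESeq2, while limma voom called 2 lower (26.2 to 58.7 against 42.7 to 78.0 CPM). Of the markers that define the sorted cells, itga2b, which encodes the Cd41 antigen, lay at 2.62, 4.33 and 6.44 CPM in mutants 1 to 3 and at 3.22, 1.18 and 1.60 CPM in wildtypes 1 to 3, and the progenitor regulator MYB lay at 75.7 to 125.4 CPM against 101.6 to 218.9 CPM. The part of these differences in the mitochondrial values was not tested. In bulk samples fewer cells of a type and less RNA per cell cannot be told apart, and neither can more mitochondria per cell and more RNA per mitochondrion.

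The messenger RNAs of the mitochondrial genome took a larger share of the counts in every mutant library than in any wildtype library, while the shares of the rRNAs and tRNAs overlapped between genotypes. All 37 genes together held 30.7%, 27.3% and 26.5% of the counts in mutants 1 to 3 and 27.6%, 23.5% and 21.3% in wildtypes 1 to 3. Their mean was 28.2% ± 2.23 (SD, n = 3) in the mutants and 24.1% ± 3.18 (SD, n = 3) in the wildtypes (exact two-sided permutation p = 0.3). With 3 libraries per genotype the smallest p this test allows is 0.1. Wildtype 1 lay above mutants 2 and 3, so the groups overlapped.

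The 13 protein genes held 3.11%, 3.19% and 3.55% of the counts in mutants 1 to 3. In wildtypes 1 to 3 they held 1.77%, 2.41% and 2.02%. The highest wildtype thus lay below the lowest mutant, and the means, 3.28% ± 0.232 and 2.06% ± 0.325 (SD, n = 3), differed 1.59-fold (exact two-sided permutation p = 0.1, the smallest possible; 0.3 after Benjamini-Hochberg adjustment over the 3 RNA classes). Counted without the rRNAs, the protein gene share was 4.30%, 4.20% and 4.60% in the mutants and 2.38%, 3.05% and 2.50% in the wildtypes, a ratio of 1.65.

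The rRNA genes dominated the mitochondrial counts of every library although the labels describe poly(A) RNA. They held 27.6%, 24.1% and 23.0% of all counts in mutants 1 to 3 and 25.8%, 21.1% and 19.3% in wildtypes 1 to 3. The groups overlapped, with means of 24.9% ± 2.41 and 22.0% ± 3.37 (SD, n = 3; exact two-sided permutation p = 0.3, adjusted 0.3). Of the mitochondrial counts alone, 86.6% to 89.8% were rRNA in the mutants and 89.7% to 93.6% in the wildtypes. Per 100 rRNA counts there were 11.3, 13.2 and 15.4 protein gene counts in mutants 1 to 3 and 6.85, 11.4 and 10.5 in wildtypes 1 to 3. Wildtype 2 reached just above mutant 1 in this ratio, and wildtype 1 was far below the other libraries.

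The 22 tRNA genes together held 0.0108%, 0.00697% and 0.0109% of the counts in mutants 1 to 3. In wildtypes 1 to 3 they held 0.00591%, 0.00821% and 0.00725%. Mutant 2 lay below wildtypes 2 and 3, so this class overlapped between genotypes (exact two-sided permutation p = 0.3, adjusted 0.3).

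**Figure D1:**
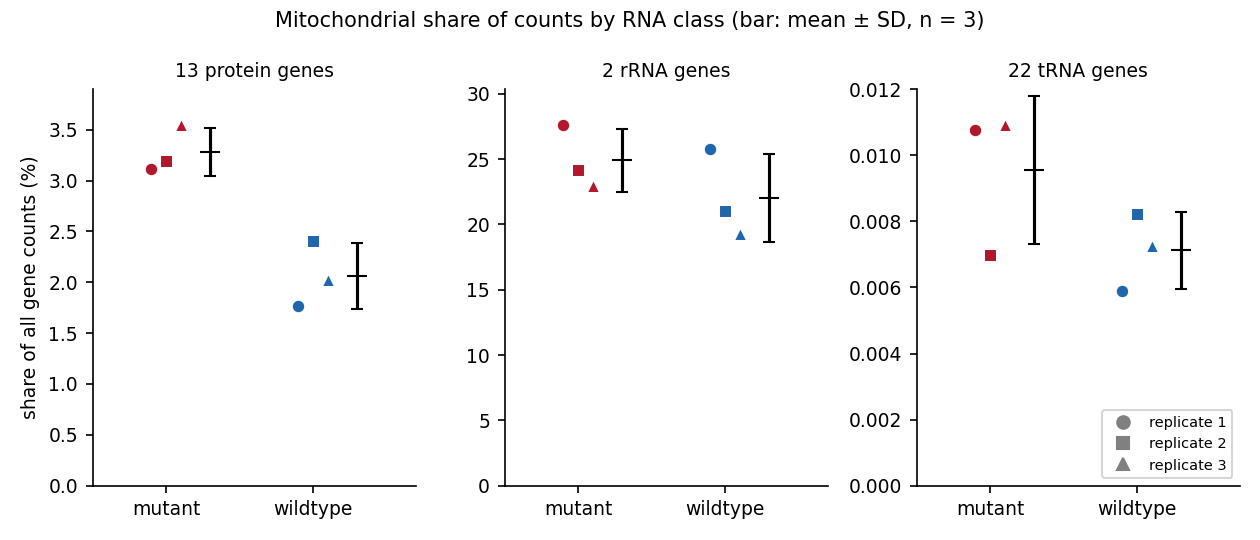
Share of all gene counts, in percent, held by the 13 protein genes, the 2 rRNA genes and the 22 tRNA genes of the mitochondrial genome; each symbol is a library, and the black bar is the mean ± SD of 3 libraries. The mutant protein gene shares, 3.11% to 3.55%, all lie above the wildtype shares of 1.77% to 2.41%, while the other classes overlap.

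Tested one by one across the whole table, every protein gene had a higher fitted level in the mutants, but none passed the threshold. Of the 37 genes, 29 had enough counts to be tested, namely all 13 protein genes, both rRNAs and 14 tRNAs. The edgeR quasi-likelihood test with Benjamini-Hochberg adjustment over 18722 genes called 0 of the 29 higher and 0 lower at an adjusted p of 0.05, where it called 3.34% of all tested genes higher and 1.99% lower. At an unadjusted p under 0.05, 13 of the 29 were higher and 0 lower, beside 11.9% and 10.9% of all tested genes; 12 of these 13 were protein genes. DESeq2 called 3 protein genes higher (mt-co1, mt-atp8 and mt-atp6, adjusted p = 0.0437, 0.0266 and 0.0266) and 0 mitochondrial genes lower, beside 6.22% and 5.46% of the genes it tested. With limma voom and sample weights, 9 protein genes were called higher (adjusted p = 0.00893 to 0.0488) and 0 lower, beside 7.8% and 7.22% of all tested genes.

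A log2 fold change above 0 was found in 13 of 13 protein genes, both rRNAs and 14 of 14 tested tRNAs, beside 51% of all tested genes. The tRNAs had passed a filter on low counts, and genes of one precursor are not independent of each other. The median log2 fold change was 0.76 over the protein genes, 0.32 over the rRNAs and 0.40 over the tested tRNAs, beside 0.02 over all tested genes. The mutant libraries lay entirely above the wildtype libraries in 11 of the 13 protein genes, in neither rRNA and in 2 of the 14 tested tRNAs, where 15.3% of all tested genes were so separated (hereafter, apart). With one library left out at a time, the protein gene median ran from 0.59 without wildtype 1 to 0.998 without wildtype 2, and it was 0.71 without mutant 1. The number of protein genes at an unadjusted p under 0.05 fell from 12 to 3 without wildtype 3, to 6 without mutant 3, to 7 without mutant 1 or wildtype 1 and to 8 without mutant 2, and was 13 without wildtype 2.

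**Figure D2:**
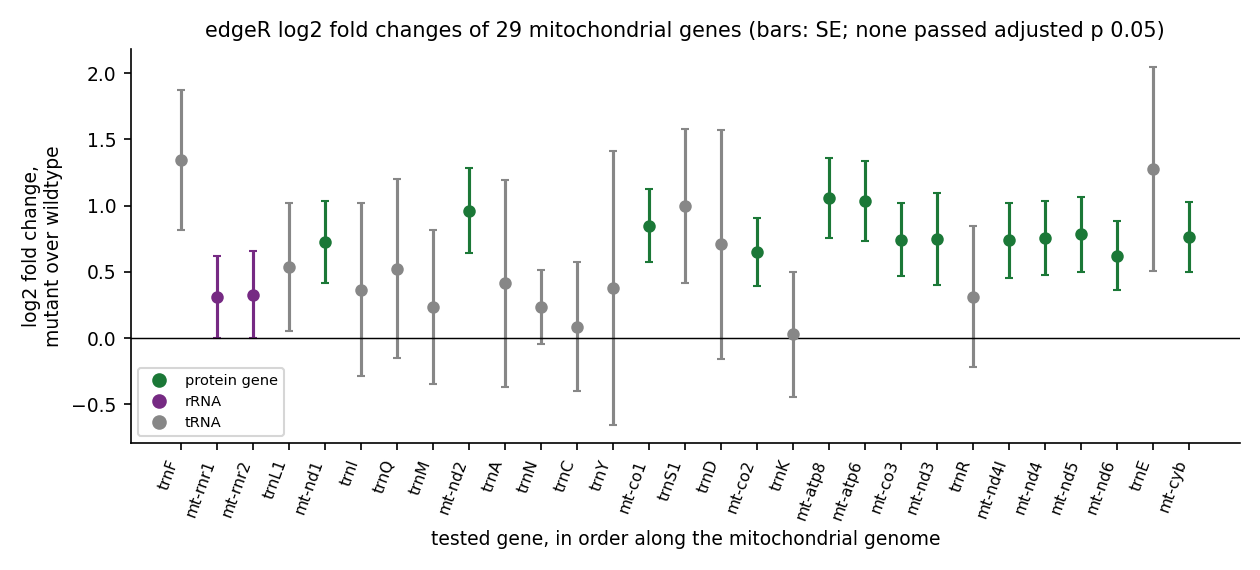
Log2 fold change of mutant over wildtype from edgeR for the 29 tested mitochondrial genes in genome order, with bars of ± 1 standard error, by RNA class. All points lie above 0, with the protein genes between 0.62 and 1.06 and the rRNAs at 0.31 and 0.33; none passed an adjusted p of 0.05.

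Complex I, which takes electrons from NADH, receives 7 of its subunits from the mitochondrial genome, all of them in its membrane arm. Summed, these genes lay at 10489.9, 8351 and 9705 CPM in mutants 1 to 3 and at 4162, 7386 and 5189 CPM in wildtypes 1 to 3, without overlap and with a ratio of means of 1.71. Wildtype 2 was the highest wildtype in this sum and in each of the 13 protein genes.

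The first protein gene on the circle, mt-nd1 (bases 3803 to 4777), had 2586, 1670.1 and 2105 CPM in mutants 1 to 3 and 964, 1739 and 1149.8 CPM in wildtypes 1 to 3. The groups overlapped, since wildtype 2 exceeded mutant 2 (log2 fold change 0.72 ± 0.31 SE, adjusted p = 0.202 in edgeR). The next, mt-nd2 (bases 4993 to 6039), had 1149.5, 1039.8 and 1149.5 CPM against 375.0, 840.1 and 500.5 CPM. It was the complex I gene with the largest fitted difference, its groups were apart, and its log2 fold change was 0.96 ± 0.32 SE (edgeR adjusted p = 0.116).

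The short gene mt-nd3 (bases 10590 to 10940) had the lowest level of the protein genes, also per length, at 134.2, 78.2 and 120.8 CPM in mutants 1 to 3 and 43.5, 98.0 and 57.0 CPM in wildtypes 1 to 3. Wildtype 2 was again above mutant 2, and mt-nd3 was the only protein gene without an unadjusted p under 0.05 in edgeR (log2 fold change 0.75 ± 0.35 SE, adjusted p = 0.245). Its neighbours mt-nd4l (bases 11009 to 11305) and mt-nd4 (bases 11299 to 12679) share 7 bases and are read from one messenger RNA in other vertebrates. In mt-nd4l the values were 434.6, 370.9 and 435.3 CPM against 172.7, 331.6 and 239.6 CPM (log2 fold change 0.74 ± 0.28 SE, edgeR adjusted p = 0.163). In mt-nd4 they were 3184, 2947 and 3012 CPM against 1364, 2353 and 1695 CPM (0.76 ± 0.28 SE, edgeR adjusted p = 0.148). Both genes were apart between genotypes.

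The longest gene, mt-nd5 (bases 12897 to 14717), had 2541, 1853 and 2439.6 CPM in mutants 1 to 3 and 1039, 1682 and 1252 CPM in wildtypes 1 to 3, without overlap (log2 fold change 0.78 ± 0.28 SE, edgeR adjusted p = 0.141). Its 3′ end meets that of mt-nd6 (bases 14714 to 15232), the one protein gene on the minus strand, with 4 bases shared. In mt-nd6 the values were 461.1, 391.8 and 442.7 CPM against 203.6, 342.4 and 295.2 CPM, also apart (log2 fold change 0.62 ± 0.26 SE, edgeR adjusted p = 0.197). With all libraries in edgeR, this was the smallest fitted difference of the protein genes. No strand option was set in the counting, so reads of mt-nd6 and reads antisense to it, from the other strand's precursor, cannot be told apart.

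Complex III, which passes electrons on to cytochrome c, has a single mitochondrially encoded subunit, cytochrome b. Its gene mt-cyb (bases 15308 to 16448) lay at 3840.5, 3740.4 and 3847 CPM in mutants 1 to 3 and at 2212, 2779 and 1745 CPM in wildtypes 1 to 3. In CPM the mutants were nearly equal and all above the wildtypes (log2 fold change 0.76 ± 0.27 SE, edgeR adjusted p = 0.131).

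Complex IV, cytochrome c oxidase, takes its 3 core subunits from the mitochondrial genome. Their sum was 18619, 18686 and 18691 CPM in mutants 1 to 3 and 9159, 13660.5 and 9912 CPM in wildtypes 1 to 3, a ratio of means of 1.71. The SD of this sum was 40.4 CPM in the mutants and 2411 CPM in the wildtypes. The single genes were less even among the mutants. Their mutant and wildtype SDs were 372 and 1247 CPM for mt-co1, 231 and 517 for mt-co2, and 175 and 695 for mt-co3. As a share of the protein gene counts, complex IV varied more in the mutants, with SDs of 2.64 and 1.05 percentage points. As a share of all counts, without TMM factors, the protein genes together had SDs of 0.232 and 0.325 percentage points.

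The gene of the catalytic subunit that reduces oxygen, mt-co1 (bases 6425 to 7975), had 9379.9, 9953 and 10078 CPM in mutants 1 to 3 and 4559, 6878 and 4925 CPM in wildtypes 1 to 3. Its groups were apart (log2 fold change 0.85 ± 0.28 SE, edgeR adjusted p = 0.108). The gene of the subunit that accepts electrons from cytochrome c, mt-co2 (bases 8130 to 8820), had 4307, 3852 and 4006 CPM against 2372, 3175 and 2209.9 CPM (0.65 ± 0.26 SE, edgeR adjusted p = 0.178). For mt-co3 (bases 9735 to 10520), which encodes the other core subunit, the values were 4932, 4881 and 4607 CPM against 2227, 3608 and 2777 CPM (0.74 ± 0.27 SE, edgeR adjusted p = 0.147). Neither mt-co2 nor mt-co3 overlapped between genotypes.

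Complex V, the ATP synthase, takes its proton channel subunit from mt-atp6 and a small membrane subunit from mt-atp8. With all libraries in edgeR, these genes had the largest fitted differences of the 13. Without mutant 1, mt-nd2 had the largest (log2 fold change 0.93, against 0.84 for mt-atp8 and 0.85 for mt-atp6). The same gene led without wildtype 2 (1.34 against 1.32 and 1.29) and in limma voom (0.91 against 0.89 and 0.88). Complex V summed to 3045, 2005 and 2359 CPM in mutants 1 to 3 and 907, 1605 and 1092 CPM in wildtypes 1 to 3. The ratio of means was 2.06. In mt-atp8 (bases 8894 to 9058) the values were 667.2, 413.5 and 498.8 CPM against 201.8, 338.8 and 219.1 CPM (log2 fold change 1.06 ± 0.30 SE, edgeR adjusted p = 0.0761). In mt-atp6 (bases 9052 to 9735) they were 2378, 1592 and 1860.7 CPM against 704.7, 1266 and 873.3 CPM (1.04 ± 0.30 SE, edgeR adjusted p = 0.0832). Both were apart, with mutant 1 the highest library in each. The pair shares 7 bases, and a fragment touching both was counted for neither, which bears most on the 165 bases of mt-atp8.

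**Figure D3:**
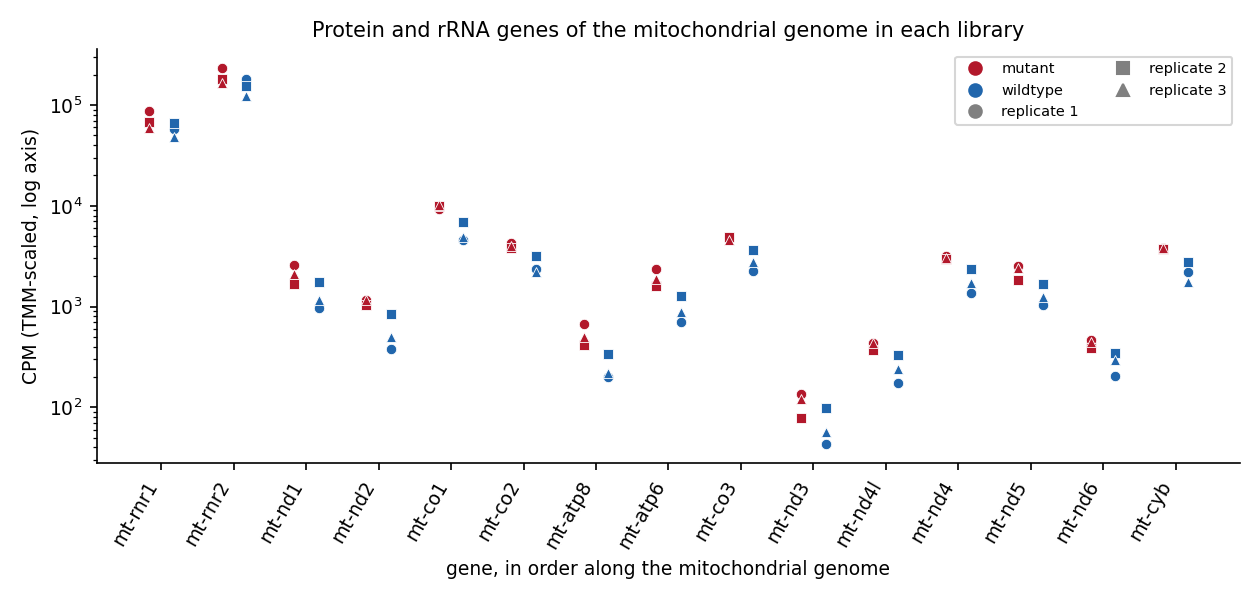
CPM, counts per 1000000 (log axis), of the 2 rRNA and 13 protein genes in genome order, with one symbol per library. The mutants lie above the wildtypes in 11 of the 13 protein genes, while mt-nd1, mt-nd3 and both rRNAs overlap.

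Across the 13 protein genes the same libraries tended to be at the ends of the range. Mutant 1 was highest in 9 genes and mutant 3 in 4, while wildtype 1 was lowest in 11 and wildtype 3 in 2 (mt-co2 and mt-cyb). Summed, the protein genes lay at 35995, 32783 and 34602 CPM in mutants 1 to 3 and at 16439.5, 25431 and 17938 CPM in wildtypes 1 to 3, a 1.73-fold ratio of means. The order of the mutants depends on the scaling. As a share of all counts, without TMM factors, mutant 1 was the lowest mutant in this sum, at 3.11% against 3.19% and 3.55%.

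The small ribosomal subunit's rRNA gene, mt-rnr1 (bases 1020 to 1971), had 87023, 67365 and 59377 CPM in mutants 1 to 3 and 57968, 66565 and 48032 CPM in wildtypes 1 to 3. The large subunit's, mt-rnr2 (bases 2043 to 3725), had 232362, 180783 and 164625 CPM against 182160.0, 155586 and 122997 CPM. Both overlapped between genotypes, and in edgeR the log2 fold changes were 0.31 ± 0.31 SE (adjusted p = 0.607) and 0.33 ± 0.33 SE (adjusted p = 0.608). These values were 0.13 and 0.16 without mutant 1, 0.19 and 0.18 without wildtype 3, and 0.17 and 0.18 with library totals alone. Per kb of gene, mt-rnr2 exceeded mt-rnr1 in each library, by 1.51, 1.52 and 1.57 times in mutants 1 to 3 and by 1.78, 1.32 and 1.45 times in wildtypes 1 to 3. In a library from poly(A) RNA, these levels depend on how much rRNA the selection let through, and that was not tested.

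Among the tRNAs, 13 of 22 had at least 100 counts over the 6 libraries. A tRNA of about 70 bases is shorter than the fragments that such libraries usually hold and is not a usual target of poly(A) selection. Fragments that also touched a neighbouring gene were not counted, which bears on the tRNAs that abut or overlap their neighbours. The asparagine tRNA trnN had the most counts, 2518 in all, and lay at 27.9, 30.5 and 26.0 CPM in mutants 1 to 3 and at 24.1, 29.0 and 18.7 CPM in wildtypes 1 to 3, with overlap (log2 fold change 0.23 ± 0.28 SE, edgeR adjusted p = 0.676). The phenylalanine tRNA trnF, first on the circle and next to mt-rnr1, had 47.2, 9.76 and 31.8 CPM against 8.66, 16.0 and 10.3 CPM. Mutant 2 lay below wildtypes 2 and 3 (log2 fold change 1.34 ± 0.53 SE, edgeR adjusted p = 0.172). The fitted difference, the largest of the 29 tested genes with all libraries in edgeR, was 0.82 without mutant 1 and 0.72 in limma voom, below the 1.27 and 1.35 of trnE.

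The groups were apart in 2 of the 14 tested tRNAs, the serine tRNA trnS1 and the glutamate tRNA trnE, beside 15.3% of all tested genes. In trnS1 the values were 3.41, 3.88 and 3.83 CPM in mutants 1 to 3 and 1.16, 2.17 and 2.22 CPM in wildtypes 1 to 3 (log2 fold change 0.998 ± 0.58 SE, edgeR adjusted p = 0.352). In trnE they were 1.91, 1.36 and 2.49 CPM against 0.845, 1.06 and 0.465 CPM (1.28 ± 0.77 SE, edgeR adjusted p = 0.367), from 84 counts over the mutants and 42 over the wildtypes. Both genes lie on the minus strand, trnS1 directly after mt-co1 and trnE directly after mt-nd6, and without strand their reads cannot be told from those of the opposite strand.

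In the remaining 9 tRNAs with at least 100 counts the genotypes overlapped. The leucine tRNA trnL1, between mt-rnr2 and mt-nd1, had 7.38, 5.49 and 6.31 CPM in mutants 1 to 3 and 2.75, 6.21 and 4.29 CPM in wildtypes 1 to 3. The arginine tRNA trnR had 6.43, 4.01 and 7.78 CPM against 2.59, 7.07 and 5.02 CPM. For the lysine tRNA trnK the values were 7.38, 4.14 and 7.53 CPM against 4.01, 7.26 and 7.40 CPM, with fitted means that were almost equal (log2 fold change 0.03 ± 0.47 SE, edgeR adjusted p = 0.979). Mutant 2 was the lowest mutant in all 3 of these genes.

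The cysteine tRNA trnC had 4.84, 3.94 and 4.15 CPM in mutants 1 to 3 and 3.64, 5.28 and 3.26 CPM in wildtypes 1 to 3, wildtype 2 being the highest library. Methionine's tRNA, trnM, had 3.89, 2.52 and 4.27 CPM against 1.64, 3.97 and 3.47 CPM. Its neighbours trnQ, for glutamine, had 2.62, 1.81 and 3.19 CPM against 0.898, 2.17 and 2.22 CPM, and trnI, for isoleucine, had 2.22, 1.81 and 2.61 CPM against 1.21, 1.61 and 2.33 CPM. These tRNA genes lie side by side between mt-nd1 and mt-nd2, and wildtype 1 was lowest in each of trnI, trnQ and trnM.

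The aspartate tRNA trnD had 2.22, 0.388 and 1.91 CPM in mutants 1 to 3 and 1.06, 0.869 and 0.828 CPM in wildtypes 1 to 3. Alanine's tRNA, trnA, had 1.51, 0.775 and 1.53 CPM against 0.739, 1.24 and 0.879 CPM. In both, mutant 2 lay within or below the wildtypes. The 9 tRNA genes with fewer counts had 0 to 74 each. Of these, trnY was tested, at 74 counts (log2 fold change 0.38 ± 1.04 SE, edgeR adjusted p = 0.869), and 8 were not tested, namely trnV, trnW, trnG, trnH, trnS2, trnL2, trnT and trnP, with 0 to 41 counts. The threonine tRNA trnT had 0 counts in all 97604945, which allows a level of up to 0.0307 CPM over the 6 libraries. It follows mt-cyb directly.

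Per kb of gene, the order of the protein genes was led by those of complex IV. The mean level over the 6 libraries was 4919 CPM per kb for mt-co1, 4884 for mt-co3 and 4805 for mt-co2, and these did not differ in order beyond the spread, since mt-co1 was above mt-co3 in 3 of 6 libraries and mt-co3 above mt-co2 in 4. All of them were above mt-cyb in every library, at 2653 CPM per kb, which in turn was above mt-atp8 (2363) in 5 of 6 libraries. Below these came mt-atp6 at 2114 CPM per kb, lower than mt-atp8 in 6 of 6 libraries. The genes mt-nd4 (1757) and mt-nd1 (1746) followed and exchanged places in 3 of 6 libraries.

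The lower end of the order held the other complex I genes. It ran from mt-nd4l (1114 CPM per kb) through mt-nd5 (989) to mt-nd2 (805), each above the next in 6 of 6 libraries. After mt-nd2 came mt-nd6 (686), which it exceeded in 4 of 6 libraries, and then mt-nd3 (252), below mt-nd6 in 6 of 6. The levels of the overlapping pairs are uncertain, because fragments spanning both genes were not counted.

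Within the overlapping pairs the ratios of the levels per kb overlapped between genotypes. The ratio of mt-atp8 to mt-atp6 was 1.16, 1.08 and 1.11 in mutants 1 to 3 and 1.19, 1.11 and 1.04 in wildtypes 1 to 3. For mt-nd4l to mt-nd4 it was 0.635, 0.585 and 0.672 against 0.589, 0.655 and 0.657. For mt-nd6 to mt-nd5, which lie on opposite strands, it was 0.637, 0.742 and 0.637 against 0.688, 0.714 and 0.827. In the last pair wildtype 3 was the highest library and mutants 1 and 3 the lowest. These ratios were chosen after the values were seen and are given as a description.

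The makeup of the protein gene counts overlapped between genotypes in each of the 4 complexes. Complex I held 27.6% ± 1.88 of the protein gene counts in the mutants and 27.8% ± 2.12 in the wildtypes (SD, n = 3; exact two-sided permutation p = 1.0), complex III 11.1% ± 0.373 and 11.4% ± 1.90 (exact p = 0.9), and complex IV 54.2% ± 2.64 and 54.9% ± 1.05 (exact p = 0.8). Complex V held 7.13% ± 1.20 in the mutants and 5.97% ± 0.411 in the wildtypes (SD, n = 3; exact two-sided permutation p = 0.2, adjusted over the 4 complexes 0.8). Its values were 8.46%, 6.12% and 6.82% in mutants 1 to 3 and 5.51%, 6.31% and 6.09% in wildtypes 1 to 3, so that wildtype 2 lay above mutant 2. A p that misses the threshold does not show that the makeup was the same.

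Of the 13 protein genes, mt-co2 alone was apart in its share of the protein gene counts, in the opposite direction to its CPM. It held 12.0%, 11.8% and 11.6% of them in mutants 1 to 3 and 14.4%, 12.5% and 12.3% in wildtypes 1 to 3. No protein gene was apart with a higher share in the mutants. These shares were not tested, and 3 libraries per genotype allow no exact two-sided permutation p below 0.1. Measured instead against all mitochondrial counts, rRNAs included, the shares of mt-atp8, mt-atp6 and trnE were apart and higher in the mutants and no gene was apart and lower. In mt-atp6 that share was 0.669%, 0.566% and 0.719% in mutants 1 to 3 and 0.275%, 0.511% and 0.462% in wildtypes 1 to 3. Each of these genes had the smallest possible exact permutation p of 0.1, with an adjusted p of 0.621 over 29 genes. All 13 protein genes had a higher mean share of the mitochondrial counts in the mutants.

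**Figure D4:**
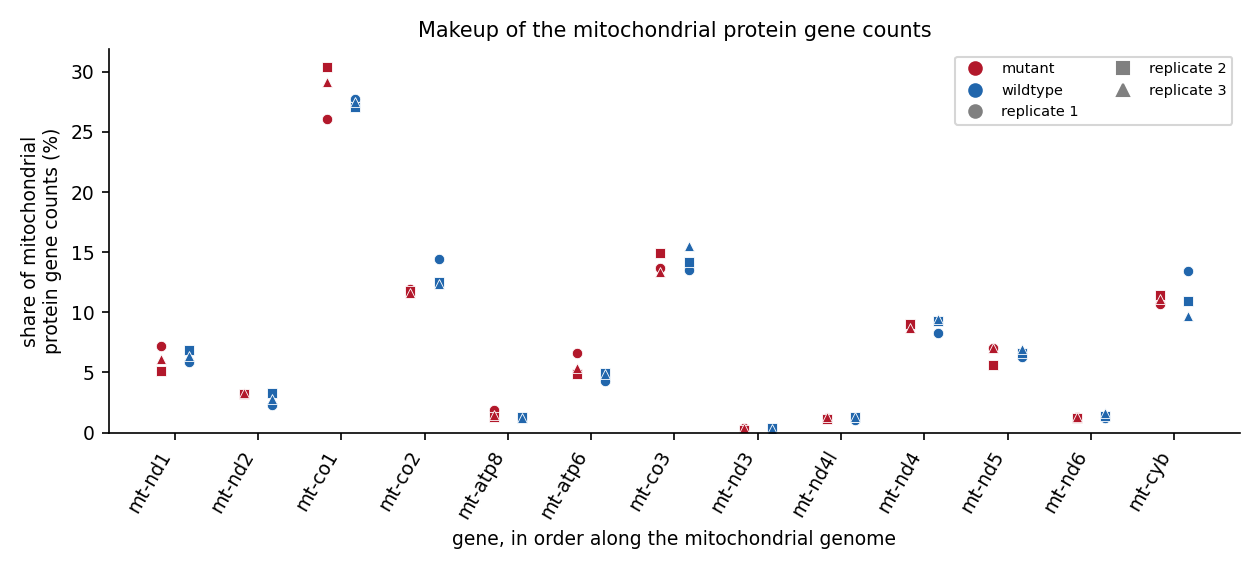
Share of each protein gene in the counts of all 13, in percent, by library and in genome order. Apart from mt-co2, at 11.6% to 12.0% in the mutants and 12.3% to 14.4% in the wildtypes, the genotypes overlap in every gene.

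Nuclear genes that maintain, express or work beside the mitochondrial genome were followed in 7 lists with 283 tested genes in all. In edgeR 6 of them rose and 1 fell, beside 3.34% and 1.99% of all tested genes. The lists were written with earlier results of these data known, so their counts are a description. Every list had a median log2 fold change above that of all tested genes, 0.02, and below that of the mitochondrial protein genes, 0.76.

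The proteins of the mitochondrial ribosome, which translates the mitochondrial messenger RNAs, were tested in 77 genes, of which 4 rose and 0 fell. The median log2 fold change was 0.45, and 66 of 77 were above 0. MRPS33, of the small subunit, had 81.6, 118.1 and 130.6 CPM in mutants 1 to 3 and 16.8, 16.8 and 23.4 CPM in wildtypes 1 to 3. It rose 5.80-fold (log2 fold change 2.53 ± 0.29 SE, edgeR adjusted p = 0.00439), without overlap, but lost its call without wildtype 2 (adjusted p = 0.0511 in edgeR). Its small-subunit partner mrps31 had 49.0, 45.0 and 49.9 CPM against 10.3, 20.7 and 10.1 CPM (1.81 ± 0.34 SE, edgeR adjusted p = 0.0220). Of the large subunit, mrpl9 (log2 fold change 1.30, edgeR adjusted p = 0.0423) and MRPL35 (1.20, edgeR adjusted p = 0.0454) rose as well. The call of mrpl9 was lost without each library but mutant 1, that of MRPL35 without any one library, and that of mrps31 without mutant 2, mutant 3 or wildtype 3. At an unadjusted p under 0.05, 14 of the 77 were higher and 0 lower, beside 11.9% and 10.9% of all tested genes. DESeq2 called 8 and limma voom 9, all of them higher, where these tools called 6.22% and 7.8% of all genes they tested higher.

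The nuclear subunits of the respiratory chain and the ATP synthase are the partners of the 13 mitochondrial proteins. Of 84 tested, 1 rose and 0 fell, and the median log2 fold change was 0.45, with 72 of 84 above 0. COX4I1, a regulatory subunit of complex IV, had 682.6, 689.4 and 732.6 CPM in mutants 1 to 3 and 375.0, 394.4 and 337.4 CPM in wildtypes 1 to 3. It rose 1.90-fold without overlap (log2 fold change 0.93 ± 0.22 SE, edgeR adjusted p = 0.0471), a call that was lost without each library but mutant 1. The complex I subunits ndufa7 (log2 fold change 1.29, edgeR adjusted p = 0.0584) and NDUFV1 (0.93, 0.0698) and the ATP synthase subunit atp5meb (0.84, 0.0701) did not pass. At an unadjusted p under 0.05, 25 of the 84 were higher and 3 lower, beside 11.9% and 10.9% of all tested genes. DESeq2 called 8 members and limma voom 14, all higher, beside 6.22% and 7.8%. The summed level of the list was 5578, 5592 and 5480.1 CPM in mutants 1 to 3 and 3572, 4499.9 and 3731 CPM in wildtypes 1 to 3, a ratio of means of 1.41 beside 1.73 for the mitochondrial protein genes.

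Genes for the maintenance and transcription of mitochondrial DNA gave 0 calls in either direction among 20 tested in edgeR, with 4 higher and 0 lower at an unadjusted p under 0.05 (11.9% and 10.9% of all tested genes). DESeq2 called 2 higher and limma voom 1, beside 6.22% and 7.8%. Their median log2 fold change was 0.29, with 14 of 20 above 0. TEFM, the elongation factor of the mitochondrial RNA polymerase, had 2.22, 3.88 and 11.2 CPM in mutants 1 to 3 and 0.634, 1.24 and 0.983 CPM in wildtypes 1 to 3, apart but with a wide spread (log2 fold change 2.59 ± 0.75 SE, edgeR adjusted p = 0.0792). The primase-polymerase gene PRIMPOL had a log2 fold change of 1.53 (edgeR adjusted p = 0.107), DGUOK, which makes DNA precursors in mitochondria, one of 1.74 (0.173), and MTERF2, of the transcription termination factor family, one of 1.59 (0.185).

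Genes for the processing and stability of mitochondrial RNA gave 0 calls in either direction among 30 in edgeR. At an unadjusted p under 0.05, 3 were higher and 0 lower, beside 11.9% and 10.9% of all tested genes. DESeq2 and limma voom each called 2 higher, beside 6.22% and 7.8% of the genes they tested. The median log2 fold change was 0.29, and 20 of 30 were above 0. SLIRP, which protects mitochondrial messenger RNAs in a complex with Lrpprc in mammals, had 22.1, 24.4 and 27.8 CPM in mutants 1 to 3 and 6.18, 14.0 and 10.4 CPM in wildtypes 1 to 3. Its groups were apart, with a log2 fold change of 1.28 ± 0.36 SE (edgeR adjusted p = 0.0756). The helicase SUPV3L1 of the mitochondrial RNA degradosome had 19.8, 25.2 and 22.5 CPM against 3.59, 7.82 and 13.5 CPM (1.44 ± 0.47 SE, edgeR adjusted p = 0.107). FASTKD3 (log2 fold change 1.11, edgeR adjusted p = 0.173), of a family of mitochondrial RNA-binding proteins, and the tRNA-modifying TRMU (0.83, 0.279) did not pass either.

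Translation factors and tRNA synthetases of the mitochondrion had the median nearest to that of all genes, 0.07, with 16 of 30 above 0. In edgeR 0 passed in either direction. At an unadjusted p under 0.05, 4 of the 30 were higher and 0 lower, beside 11.9% and 10.9% of all tested genes. DESeq2 called 0 and limma voom 1, higher, beside 6.22% and 7.8% of the genes they tested. The smallest p-values were those of mtfmt, which formylates the initiator methionine (log2 fold change 0.99, edgeR adjusted p = 0.118), the elongation factor TUFM (0.68, 0.148), the prolyl-tRNA synthetase PARS2 (2.55, 0.162, at under 5 CPM in each library) and the initiation factor MTIF2 (0.99, 0.192).

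Markers of import, mitochondrial mass and biogenesis were tested in 28 genes, of which 1 rose and 0 fell, with a median of 0.22 and 18 above 0. At an unadjusted p under 0.05, 4 were higher and 1 lower, beside 11.9% and 10.9% of all tested genes. DESeq2 called 2 and limma voom 3, all higher, beside 6.22% and 7.8% of the genes they tested. TIMM50, a receptor of the inner membrane import machinery, had 24.8, 31.8 and 29.7 CPM in mutants 1 to 3 and 5.60, 7.76 and 8.79 CPM in wildtypes 1 to 3. It rose 3.89-fold without overlap (log2 fold change 1.96 ± 0.32 SE, edgeR adjusted p = 0.0142), and lost the call without mutant 2, mutant 3 or wildtype 2. The outer membrane channel VDAC2 had 367.5, 503.1 and 469.4 CPM against 189.2, 289.1 and 218.3 CPM (0.94 ± 0.26 SE, edgeR adjusted p = 0.0720), and the matrix chaperone HSPA9 a log2 fold change of 0.80 (edgeR adjusted p = 0.129). The coactivator pprc1, related to regulators of mitochondrial biogenesis, was apart in the other direction, at 50.8, 65.2 and 51.5 CPM against 86.9, 98.5 and 78.8 CPM (log2 fold change -0.66 ± 0.24 SE, edgeR adjusted p = 0.144).

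Of 16 mitophagy genes 0 rose and 1 fell in edgeR, with a median of 0.17 and 11 above 0. TBK1, a kinase that acts on mitophagy receptors and also in innate immune signalling, had 15.3, 16.7 and 12.8 CPM in mutants 1 to 3 and 38.2, 46.2 and 41.2 CPM in wildtypes 1 to 3. Its groups were apart and it fell by 1.49 on the log2 scale (± 0.27 SE, edgeR adjusted p = 0.0182), a call lost without mutant 2, mutant 3, wildtype 2 or wildtype 3. The receptor BNIP3L, which in mammals clears mitochondria from maturing red cells, is on 2 genes here. ENSDARG00000028067 had 77.9, 118.3 and 112.2 CPM against 64.5, 24.8 and 33.1 CPM (log2 fold change 1.33 ± 0.38 SE, edgeR adjusted p = 0.0746). ENSDARG00000025468 had a log2 fold change of 0.59 (edgeR adjusted p = 0.335), and the autophagy kinase gene ulk1a one of -0.82 (0.321). At an unadjusted p under 0.05 in edgeR, 1 of the 16 was higher and 1 lower, beside 11.9% and 10.9% of all tested genes. At an adjusted p of 0.05, DESeq2 had 1 member higher and 1 lower, beside 6.22% and 5.46% of the genes it tested. At the same threshold 1 member passed in each direction with limma voom, beside 7.8% and 7.22% of all tested genes.

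**Figure D5:**
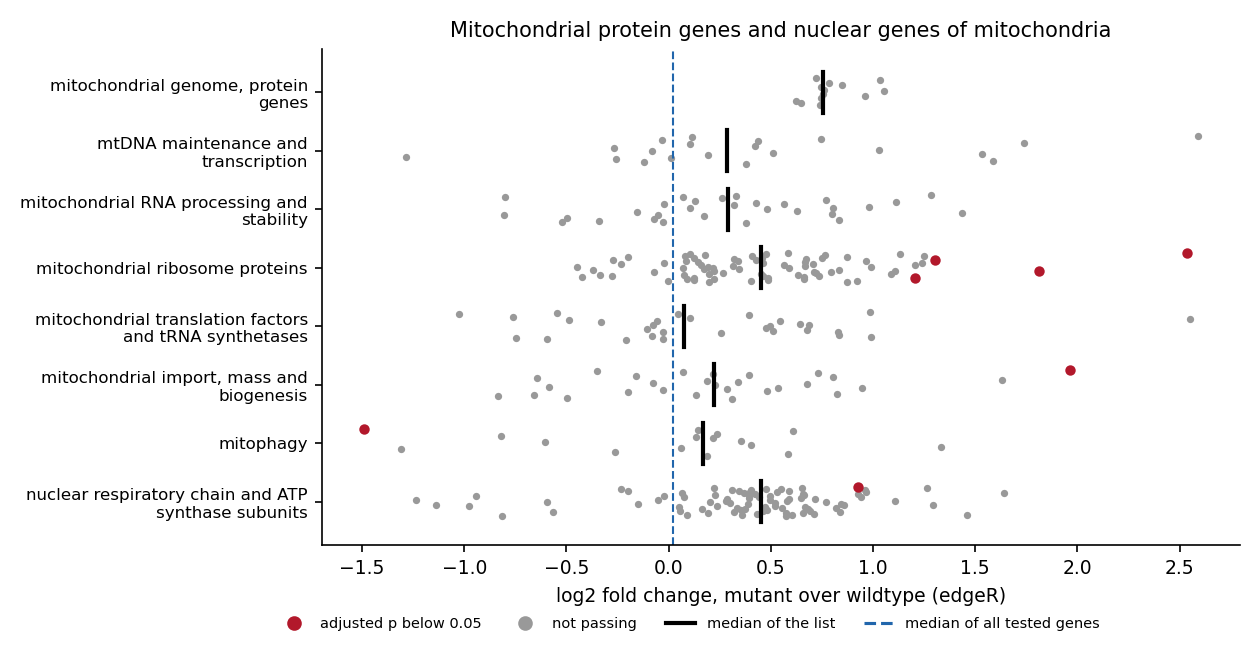
Log2 fold change of mutant over wildtype from edgeR for the 13 mitochondrial protein genes and for the tested members of 7 lists of nuclear genes; black ticks are list medians, the dashed line is the median of all tested genes, and red points passed an adjusted p of 0.05. The protein genes lie between 0.62 and 1.06 with a median of 0.76, while the list medians lie between 0.07 and 0.45.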

How the data were processed

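Poly(A) libraries were made at BGI by a low-input protocol from RNA of the sorted cells, isolated with a Zymo microprep kit, per the labels. The deposited values are raw counts of paired-end fragments per gene, made by the authors with featureCounts 1.5.0-p1 on Ensembl release 85 (GRCz10), per the file headers. Pairs were counted where each mate mapped and the pair was not chimeric, and the command held no setting for strand, multi-mapping or overlap. Fragments touching more than 1 gene, or mapping to several places such as nuclear copies of mitochondrial DNA, were therefore not counted. STAR 2.4.2a, Cufflinks 2.2.1, Picard, Trim Galore and DESeq2 are named without roles, per the submitters' processing notes. Totals were 14577735 to 17639699 counts per library.

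Mitochondrial genes were the rows of chromosome M. The 13 protein genes were named by identifier, and all 37 genes matched a RefSeq mitochondrial gene by identical start, end and length, which named the other 24. Counts were fitted in R 4.3.3 with edgeR 4.0.16 (TMM, filterByExpr with a minimum count of 10 and a minimum total of 15, quasi-likelihood F test of genotype, Benjamini-Hochberg over 18722 genes, threshold 0.05). The SE given with an edgeR log2 fold change is its absolute value divided by the square root of the F statistic. CPM per kb divides by the deposited gene length. Shares were compared by exact two-sided permutation over the 20 arrangements of the 6 libraries. Alternatives were RLE factors, library totals alone, scaling from nuclear genes only, other count filters, DESeq2 1.42.0, limma 3.58.1 voom with sample weights, a replicate block, other denominators and leaving out each library. The edgeR fit was tested on simulated data with changes placed on genes drawn at random from all tested genes. There it missed nearly all 2-fold changes at this threshold and recovered larger changes more often. Far fewer genes passed there than in these data, so the adjusted threshold was harder to meet than here. Recovery at the levels of the mitochondrial genes was not tested. Replicate numbers in the titles were not taken as pairs, since the labels do not state a pairing. Deviations from the genotype means, in log2 CPM, correlated at 0.224, 0.155 and 0.0875 between same-numbered libraries. Between libraries of unlike number they correlated at -0.186 to 0.0629.

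Values by library are given for all protein and rRNA genes and for tRNAs with at least 100 counts; of each nuclear list the 4 tested members with the smallest p are named. Of 292 nuclear list entries 20 were not matched by symbol, and of 98 marker entries 34. The members, lists and markers were chosen with earlier results of these data known. The ddx41 level is not reported here, which leaves the mutant label unchecked in these counts.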

Additional observations from a re-analysis of the deposited data

How the results depend on the processing

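All 13 protein genes and both rRNAs had log2 fold changes above 0 under each of the 14 alternatives. No mitochondrial gene was called higher or lower in edgeR under any alternative, while DESeq2 called 3 higher and limma voom 9. With library totals alone the median of all genes shifted from 0.02 to -0.12 and that of the protein genes to 0.64, and the calls over all genes were 463 higher and 572 lower (44.7% higher) in place of 625 and 373 (62.6% higher). Calls over all genes were also 1342 higher and 1178 lower in DESeq2, 1460 and 1352 in limma voom, and from 51 and 11 without wildtype 2 to 1135 and 832 without mutant 1. In the tRNAs 11 of 195 values were below 0. With library totals alone trnC was at -0.036 and trnK at -0.11, and in limma voom trnK was at -0.19. With 1 library left out the log2 fold change ran from -0.063 to 0.47 for trnM, from -0.052 to 0.31 for trnC, from -0.13 to 1.39 for trnY and from -0.21 to 0.26 for trnK. For mt-rnr1 it ran from 0.13 to 0.43, for mt-rnr2 from 0.16 to 0.47 and for trnF from 0.82 to 1.76. The cause was not tested.

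As a share of all mitochondrial counts, the difference of mutant minus wildtype was 0.775 percentage points for complex I, 0.330 for complex III and 1.59 for complex IV, above 0 where the share of protein gene counts was below it; the former denominator includes the rRNAs. With 1 library left out these differences in the share of protein gene counts ran from -1.43 to 0.832 for complex I, from -1.13 to 0.737 for complex III and from -2.02 to 0.615 for complex IV. Genes whose shares of the mitochondrial counts were apart numbered 3 higher and 0 lower, but 0 higher and 1 lower as shares of protein gene counts, and 3 to 10 higher and 0 to 3 lower with 1 library left out, where fewer libraries make separation easier. Of the nuclear list members, 283 of them tested in the main fit, 6 were called higher, beside 3.34% of all tested genes. DESeq2 called 23 and limma voom 31 higher, beside 6.22% and 7.8% of the genes they tested. With library totals alone 3 were called higher, where 463 of all 18722 tested genes were. With 1 library left out it was 1 to 11, where 51 to 1135 of all genes were called higher. Those called lower numbered 1, beside 1.99% of all tested genes, and 0 to 1 with 1 library left out. A comparison with 2 libraries in a group assumes that they vary like the other group.

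With the replicate block no mitochondrial gene was called and the protein gene median was 0.79; over all genes 917 were called higher and 653 lower, and 12 nuclear list members were called higher. In the same pairing 11 of 29 mitochondrial genes had a higher share of the mitochondrial counts in each mutant than in its numbered wildtype. In 1 of the 29 the share was lower in each. These shares are parts of one total, so the genes are not independent of each other, and no share over all genes is given for this ordering. The protein gene share differed by 1.22 percentage points with an exact sign-flip p of 0.25, the smallest that 3 pairs allow. In deviations from the genotype means, each library correlated best with the other genotype's library of its own number. For number 3 the correlation was 0.0875, beside 0.0629 between mutant 2 and wildtype 3 and 0.0574 between mutant 3 and wildtype 2. The labels state no pairing, and whether the numbers mark pairs was not tested.

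The design limits every share test to a p of at least 0.1. Low counts limit 22 tRNA genes more than the protein genes, which had 8301 counts or more over the 6 libraries.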
